A study of Rattus norvegicus with 16 samples.

Results

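The enzymes that build and break down triacylglycerol were followed at the transcript level in rat supraspinatus, a muscle of the rotator cuff, after its tendon was torn and its nerve was cut. Members were the genes whose symbol in the deposited table is Gpam, Agpat2, Agpat3, Lpin1, Lpin2, Dgat1, Dgat2, Mgll, Abhd5 or Pnpla3. These are 10 of the 17147 genes of the table, and all 10 had enough fragments to be tested among 11658 genes. Pnpla2, which encodes adipose triglyceride lipase, is listed at 0 in all 16 libraries. It was left out for that reason.

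Triacylglycerol is the form in which cells store fatty acids, in droplets inside muscle fibres and in fat cells between them. It is assembled on a glycerol 3-phosphate backbone by acyltransferases, then a lipin phosphatase removes the phosphate to give diacylglycerol, and a diacylglycerol acyltransferase adds the last fatty acid. Breakdown runs the other way, with lipases releasing fatty acids until monoacylglycerol is split to glycerol. The diacylglycerol made on this route is also the starting point for membrane phospholipids.

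The animals were Sprague Dawley rats, and the libraries form 4 groups of 4. The 0-day group was unoperated, and the other groups had the supraspinatus torn through its full thickness in both shoulders plus a suprascapular neurectomy, which takes away its nerve, and were sampled 10, 30 or 60 days later. No sham-operated group was analysed here, so the operation, the tear and the nerve loss cannot be told apart, and the labels give neither age nor sex. Every library has its own number in its title, followed by L or R, but the labels do not say whether libraries come from separate rats, so p-values measure only the spread between these samples.

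Library totals ran from 17.2 to 39.9 M fragments (M, mega), with the 60-day libraries (17.2 to 22.4 M) at the lower end. Levels are given as CPM, fragments of a gene per 1 M after scaling with TMM factors, and were compared between libraries and never between genes, since gene lengths were not used. The 10 most abundant genes took 23.7 to 25.1% of fragments in unoperated muscle and, in the order 10, 30 and 60 days, 12.6 to 14.7%, 16.2 to 20.1% and 18.4 to 19.5%. Transcripts of 8 myofibre genes (Ckm, Acta1, Mb, Myh4, Myh1, Tnnt3, Actn3, Pvalb) summed to 221577 to 241898 CPM in unoperated muscle. The sums were then 64890.5 to 68620.5, 102780 to 145713 and 122003 to 144605 CPM, so that the markers of the labelled tissue were present in all 16 libraries. Against 0 days 7, 6 and 6 of the 8 were lower at 10, 30 and 60 days (edgeR quasi-likelihood test, adjusted p under 0.05). Among all tested genes 29.4%, 30.9% and 29.1% were lower and 33.3%, 33.7% and 29.9% higher. Mb was higher at all 3 times. With libraries scaled by their totals 6, 5 and 4 of the 8 were lower and 1, 2 and 1 higher. The part of these changes in the levels of the enzymes was not tested. In whole muscle, fewer cells of a type and less RNA per cell cannot be told apart.

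With TMM scaling most of the 10 members fell after the injury. The list was chosen with earlier results of these data known. At 10 days 7 of the 10 members were lower than at 0 days and 1, Lpin2, was higher, where 29.4% of all tested genes were lower and 33.3% were higher (edgeR quasi-likelihood test, adjusted p under 0.05). At 30 days 9 were lower and Lpin2 was higher, against 30.9% lower and 33.7% higher among all genes. At 60 days the count was again 9 lower and Lpin2 higher, against 29.1% and 29.9%. The members' median log2 fold changes, in the order of the times, were -0.55, -1.11 and -0.89, while those of all tested genes were 0.06, 0.05 and 0.04. The 3 comparisons share the 0-day libraries. In the F test of the 4 groups together all 10 members passed, as did 84.7% of all genes.

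The groups did not overlap for 7, 10 and 9 members at the successive times, against 59.0%, 60.2% and 50% of all genes. Being lower at all 3 times was shared by 7 members (Gpam, Agpat2, Agpat3, Lpin1, Dgat1, Dgat2 and Pnpla3) and by 15.6% of all tested genes. Lpin2 was higher at all 3 times, as were 16.6% of all genes. Mgll and Abhd5, both on the breakdown side, passed the test only at 30 and 60 days. With libraries scaled by their totals in place of TMM factors the 10-day split became 3 lower and 4 higher, the 30-day split 7 lower and 1 higher, and the 60-day split 5 lower and 1 higher. Over all genes, that scaling raised the median change by 0.66, 0.49 and 0.41 on the log2 scale. The TMM shares of all genes do not apply to counts with library totals, here or below. Shares of all genes under library totals are not given. Lpin1, Lpin2 and Pnpla3 kept their direction and their call against 0 days under all 4 scalings tried (TMM, RLE, upper-quartile and library totals).

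**Figure D1:**
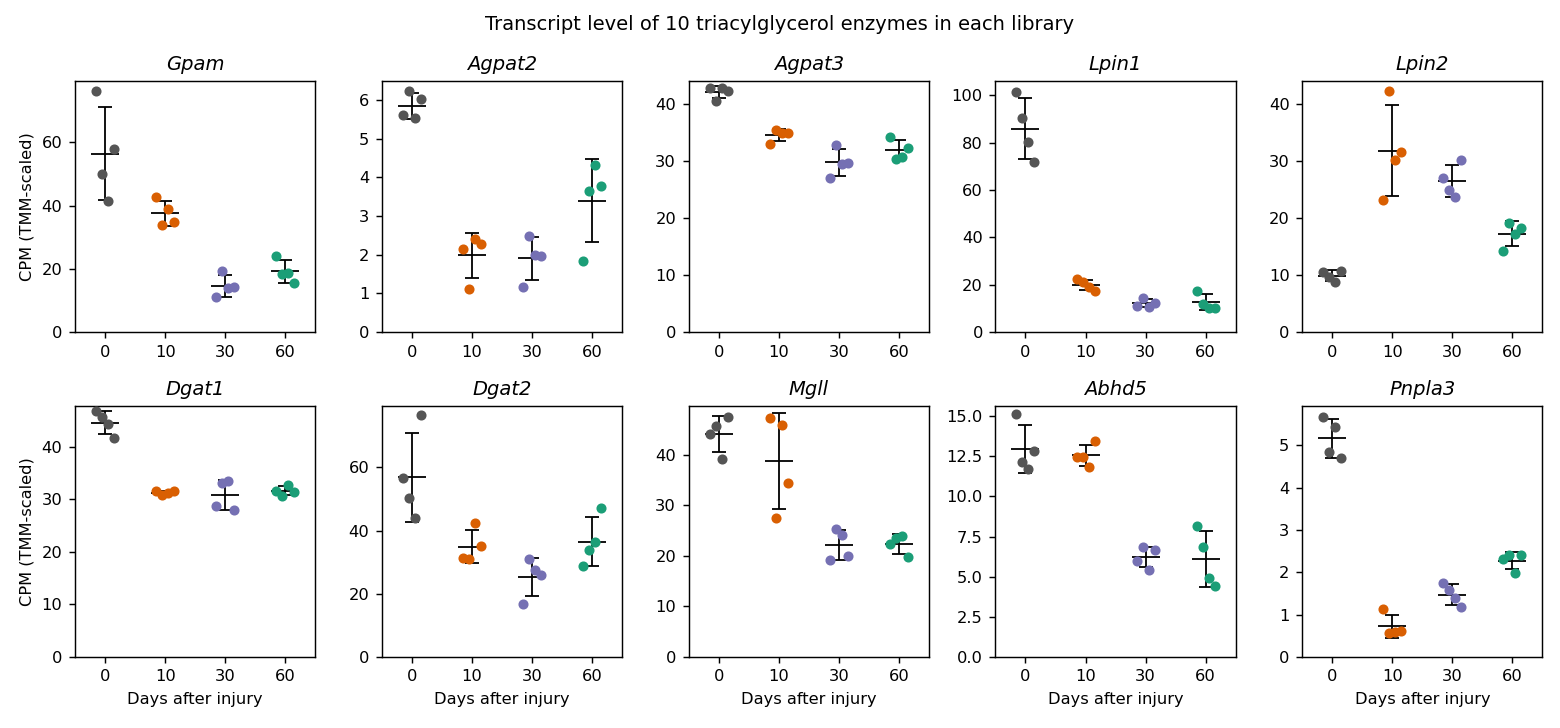
Level of each of the 10 transcripts (vertical axis, TMM-scaled CPM, from 0) in each library at 0, 10, 30 and 60 days (horizontal axis). Points are libraries, long bars are group means and capped bars are 1 SD of 4 libraries. Lpin1 drops from 71.8 to 101 CPM at 0 days to 17.6 to 22.3 CPM at 10 days, while Lpin2 moves from 8.70 to 10.8 CPM up to 23.1 to 42.3 CPM.

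**Figure D2:**
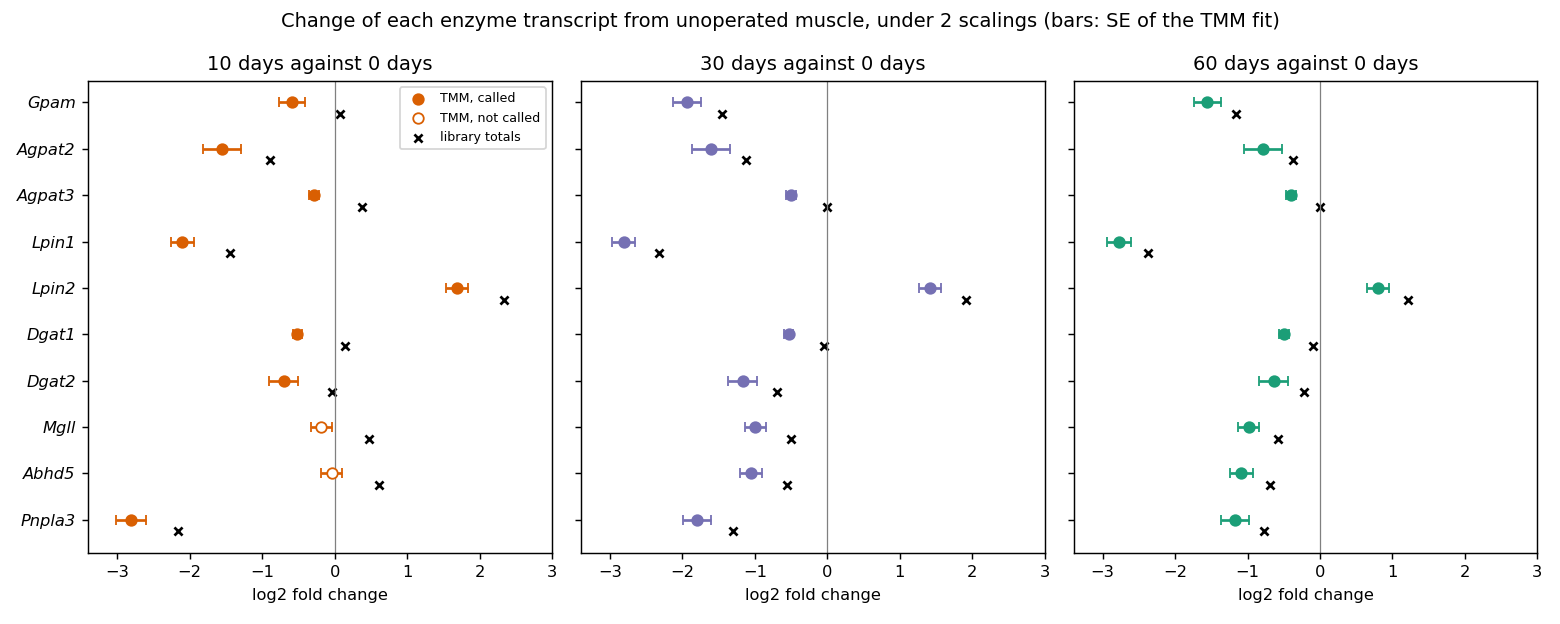
Log2 fold change against 0 days (horizontal axis) of each member (vertical axis) at 10, 30 and 60 days. Circles are the TMM-scaled fit with bars of 1 SE, filled where the adjusted p is under 0.05, and crosses are the same fit with library totals as the scaling. At 10 days the crosses of Gpam, Agpat3, Dgat1, Mgll and Abhd5 lie to the right of 0 and their circles to the left.

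The promoters of the members with the largest falls are shown so that a reader can see the sequence these transcripts start from. They were read from RefSeq for the rat assembly GRCr8, whose promoter table held 8 of the 10 members. Each line gives the 250 bases before the start of transcription, on the gene's strand, with capitals marking matches on either strand to the E box CACGTG, the nuclear receptor element AGGTCA, the CCAAT box, the GC box GGGCGG or the sterol response type TCACNCCAC. A match to the reverse strand appears as its complement, so ATTGG is a reverse CCAAT. Lpin1 is at chr6:45108943-45109192 on the minus strand, Gpam at chr1:264175912-264176161 on the minus strand, Pnpla3 at chr7:117173278-117173527 on the plus strand and Agpat2 at chr3:29826158-29826407 on the minus strand. Lpin2, at chr9:118530105-118530354 on the plus strand, is added for contrast as the member that rose, a choice made after its values were seen.
Lpin1: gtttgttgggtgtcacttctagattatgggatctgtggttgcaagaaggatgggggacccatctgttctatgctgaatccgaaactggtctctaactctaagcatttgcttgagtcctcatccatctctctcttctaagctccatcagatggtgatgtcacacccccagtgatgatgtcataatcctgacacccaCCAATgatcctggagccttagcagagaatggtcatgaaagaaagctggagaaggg
Gpam: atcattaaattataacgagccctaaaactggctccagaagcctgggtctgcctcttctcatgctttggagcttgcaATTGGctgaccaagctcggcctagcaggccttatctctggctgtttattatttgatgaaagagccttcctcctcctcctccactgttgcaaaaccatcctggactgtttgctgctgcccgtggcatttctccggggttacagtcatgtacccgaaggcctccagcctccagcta
Pnpla3: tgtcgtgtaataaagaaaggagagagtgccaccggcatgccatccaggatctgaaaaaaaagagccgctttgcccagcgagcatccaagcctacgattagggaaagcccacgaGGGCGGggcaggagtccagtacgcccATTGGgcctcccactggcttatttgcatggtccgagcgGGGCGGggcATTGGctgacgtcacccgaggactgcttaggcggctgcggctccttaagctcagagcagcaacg
Agpat2: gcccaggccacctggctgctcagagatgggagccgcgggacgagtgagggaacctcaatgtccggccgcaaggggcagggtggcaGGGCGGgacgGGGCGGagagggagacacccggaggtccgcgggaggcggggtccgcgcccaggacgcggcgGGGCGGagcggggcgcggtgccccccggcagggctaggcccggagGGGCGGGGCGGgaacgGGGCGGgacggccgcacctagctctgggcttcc
Lpin2: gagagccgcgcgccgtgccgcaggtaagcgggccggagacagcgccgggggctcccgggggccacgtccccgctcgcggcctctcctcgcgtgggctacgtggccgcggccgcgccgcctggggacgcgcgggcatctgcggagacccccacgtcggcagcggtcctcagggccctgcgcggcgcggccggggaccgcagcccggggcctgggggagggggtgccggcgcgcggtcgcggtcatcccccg

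The Lpin1 window holds 1 CCAAT, starting 55 bases before the start, and the Gpam window 1 reverse CCAAT at 174 bases. Pnpla3 has reverse CCAAT matches at 111 and 64 bases and GC boxes at 137 and 73 bases. Agpat2 carries GC boxes at 165, 155, 94, 49, 44 and 33 bases, the copies at 49 and 44 overlapping by 1 base. The Lpin2 window has none of these letters. G and C make up 47.2% of the printed Lpin1 bases, 51.2% for Gpam, 59.2% for Pnpla3, 78.4% for Agpat2 and 82.4% for Lpin2. For the matched members not printed the share is 58% for Agpat3, 72.4% for Mgll and 74.4% for Abhd5. High shares thus occur in members that fell as well as in Lpin2. In windows of 300 bases (50 after the start included) CCAAT occurs in 4 of the 8 matched members and in 37.5% of 33469 promoters, and GGGCGG in 4 of 8 and in 33.1%. AGGTCA is found in 2 of 8 and in 16.2%, CACGTG in 1 of 8 and in 6.42%, and TCACNCCAC in 0 of 8 and in 1.12%. These are matches of letters, and no binding was measured.

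Gpam encodes the mitochondrial glycerol-3-phosphate acyltransferase, which adds the first fatty acid to the backbone. Its level was 76.1, 50.1, 41.6 and 58.0 CPM in the 0-day libraries and 42.5, 33.8, 38.9 and 34.9 CPM at 10 days. It was 11.0, 19.4, 14.1 and 14.2 CPM at 30 days and 24.0, 18.5, 18.8 and 15.5 CPM at 60 days. The 10-day libraries overlapped the lower end of the 0-day libraries, while every 30-day and 60-day library lay below both of those groups. Against 0 days the 10-day log2 fold change was -0.59 ± 0.18 (SE, adjusted p = 0.0106), the 30-day one -1.94 ± 0.19 (3.84e-07) and the 60-day one -1.55 ± 0.19 (5.38e-06). Gpam thus fell to 26.0% of its 0-day mean at 30 days, the 177th largest fall among the tested genes. The 10-day call ended without 0-day replicate 1 (-0.41, adjusted p = 0.0518) and the value was 0.07 with library totals.

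Agpat2 and Agpat3 encode acyltransferases that add the second fatty acid, to lysophosphatidic acid. Human AGPAT2 is known from a congenital lack of body fat. Agpat2 stood at 5.62, 6.24, 5.53 and 6.04 CPM at 0 days. At 10 days its level was 2.15, 1.12, 2.41 and 2.27 CPM, and at 30 days 1.17, 2.49, 2.00 and 1.97 CPM. At 60 days it was 1.84, 3.65, 4.33 and 3.78 CPM. No injured library reached the 0-day range, and the 60-day libraries were spread from the 30-day level to near the 0-day level. The log2 fold changes were -1.56 ± 0.26 (adjusted p = 7.47e-05), -1.61 ± 0.27 (6.48e-05) and -0.79 ± 0.26 (0.0159) at the successive times. The 60-day call was lost when scaling by totals (-0.38). Agpat2 had few fragments, 33 in the lowest library (30 days, replicate 1; 95% exact Poisson interval 22.7 to 46.3, for counting error only).

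Agpat3 changed far less but with little spread. The unoperated libraries held 42.8, 40.5, 42.7 and 42.3 CPM, and the 10-day ones 33.0, 35.4, 34.9 and 34.8 CPM. The 30-day libraries held 27.0, 32.8, 29.4 and 29.7 CPM, and the 60-day ones 34.2, 30.3, 30.7 and 32.2 CPM. All 12 injured libraries were below all 0-day libraries. Log2 fold changes were -0.29 ± 0.07 (adjusted p = 0.0012), -0.50 ± 0.07 (6.55e-06) and -0.40 ± 0.07 (8.73e-05). These differences are close to the shift between scalings or below it, since scaling by totals put Agpat3 higher at 10 days (0.37, adjusted p = 7.44e-05) and near 0 afterwards (-0.0092 and 0.0066).

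The lipins were the members that moved in opposite directions. Lpin1 encodes lipin 1, the phosphatidic acid phosphatase known as the main one of skeletal muscle, and also a nuclear co-regulator of fatty acid oxidation genes. Lpin2 encodes a related phosphatase. Lpin1 stood at 101, 90.6, 80.2 and 71.8 CPM at 0 days and at 22.3, 21.3, 18.9 and 17.6 CPM at 10 days. It was 11.1, 14.5, 10.8 and 12.4 CPM at 30 days and 17.5, 12.1, 10.3 and 10.4 CPM at 60 days. All injured libraries lay far below all 0-day libraries, and the 30-day and 60-day groups overlapped. The fall measured -2.10 ± 0.16 (adjusted p = 1.09e-08), -2.81 ± 0.16 (1.3e-09) and -2.77 ± 0.16 (6.13e-09) on the log2 scale. These were the 48th largest fall of all tested genes at 30 days and the 33rd largest at 60 days, when Lpin1 was at 14.2% and 14.6% of its 0-day mean.

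Lpin2 was 10.5, 9.57, 8.70 and 10.8 CPM at 0 days and 23.1, 42.3, 30.2 and 31.5 CPM at 10 days. At 30 days it was 26.9, 24.9, 23.7 and 30.1 CPM and at 60 days 14.2, 19.2, 17.2 and 18.3 CPM. Every injured library exceeded every 0-day library, and the 60-day libraries were lower than all 10-day and 30-day ones. The rise measured 1.69 ± 0.15 (adjusted p = 7.96e-08), 1.42 ± 0.15 (7.42e-07) and 0.80 ± 0.15 (0.000343) on the log2 scale, or 3.22-fold, 2.67-fold and 1.74-fold. The 10-day rise ranked 697th among all tested genes, where the 10-day fall of Lpin1 ranked 259th.

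The ratio of Lpin1 to Lpin2 fragments within a library needs no scaling. Its geometric mean was 8.65 in unoperated muscle (libraries 6.65 to 9.68) and, in the order 10, 30 and 60 days, 0.642 (0.504 to 0.967), 0.462 (0.412 to 0.585) and 0.717 (0.570 to 1.23). Every injured library was thus below every 0-day library, by -3.75, -4.23 and -3.59 on the log2 scale. Each of these differences had a two-sided exact permutation p of 0.0286, the smallest that 4 libraries against 4 can give, and an adjusted p of 0.0857 over the 30 ratio tests, so that none passed after adjustment. Only the change of the ratio can be read, since transcript lengths differ.

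**Figure D3:**
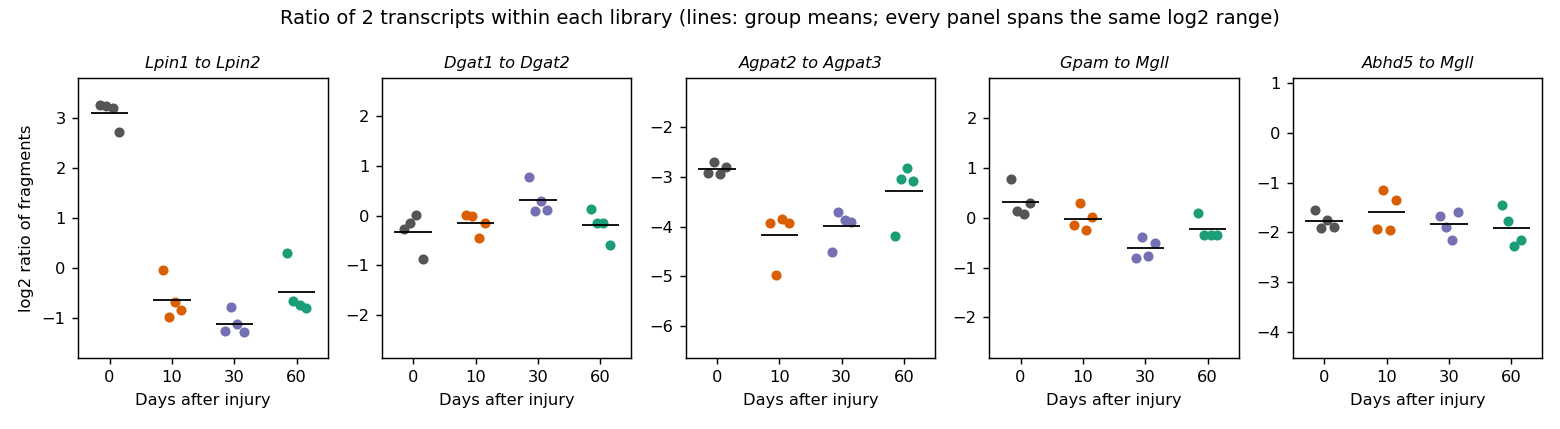
Log2 ratio of the fragments of 2 transcripts within each library (vertical axis) at 0, 10, 30 and 60 days (horizontal axis), for 5 pairs of members. Points are libraries and lines are group means, and all panels span the same log2 range. The Lpin1 to Lpin2 ratio falls from 2.73 to 3.28 at 0 days to -0.99 to -0.05 at 10 days, and the other pairs move less.

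Dgat1 and Dgat2 encode the diacylglycerol acyltransferases, enzymes of unrelated families that carry out the same last step. Dgat1 was 46.8, 45.6, 44.2 and 41.6 CPM at 0 days and 31.5, 30.7, 31.1 and 31.5 CPM at 10 days. It was 28.6, 33.0, 33.4 and 27.9 CPM at 30 days and 31.6, 30.6, 32.7 and 31.3 CPM at 60 days. The injured groups overlapped one another and all lay below the 0-day group. Log2 fold changes were nearly the same at the 3 times, -0.51 ± 0.07 (adjusted p = 5.24e-06), -0.53 ± 0.07 (4.23e-06) and -0.50 ± 0.07 (1.33e-05). With library totals they were 0.14, -0.04 and -0.09 and none passed.

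Dgat2 was 56.6, 50.3, 44.0 and 76.6 CPM at 0 days and 31.2, 31.1, 42.3 and 35.1 CPM at 10 days. Its mean was lowest at 30 days, with libraries at 16.7, 30.8, 27.4 and 25.9 CPM, and the 60-day libraries stood at 28.8, 33.8, 36.3 and 47.0 CPM. The highest 60-day library overlapped the 0-day group, and the 10-day and 30-day libraries did not. The log2 fold changes were -0.70 ± 0.20 (adjusted p = 0.00597), -1.17 ± 0.20 (0.000118) and -0.64 ± 0.20 (0.0124). The 60-day call ended without 0-day replicate 4 (-0.45, adjusted p = 0.0609), and with library totals the 10-day and 60-day calls were lost (-0.04 and -0.22). The ratio of Dgat1 to Dgat2 was 0.800, 0.900, 1.25 and 0.879 in the 4 groups in order of time, with 30 days above 0 days and above 10 days in every library (exact permutation p = 0.0286, adjusted 0.0857, for both).

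On the breakdown side, Pnpla3 fell at 10 days, and Mgll and Abhd5 passed the test only from 30 days on. Mgll encodes monoacylglycerol lipase, which splits the last fatty acid from glycerol and also degrades an endocannabinoid. It was 44.3, 45.7, 39.3 and 47.5 CPM at 0 days and 47.3, 27.6, 46.0 and 34.5 CPM at 10 days. The 10-day libraries ranged from the top of the 0-day group to well below it, and the difference did not pass (-0.18 ± 0.14, adjusted p = 0.273). At 30 days Mgll was 19.2, 25.3, 24.1 and 20.1 CPM and at 60 days 22.4, 23.5, 24.0 and 19.7 CPM, all below every 0-day and 10-day library. The log2 fold changes were -0.99 ± 0.15 (adjusted p = 2.04e-05) and -0.98 ± 0.15 (3.46e-05).

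Abhd5, also called CGI-58, is the protein that activates adipose triglyceride lipase on the lipid droplet. Its level was 15.1, 12.2, 11.7 and 12.8 CPM at 0 days and 12.5, 12.5, 11.9 and 13.5 CPM at 10 days, groups that overlapped (-0.04 ± 0.15, adjusted p = 0.819). It was 5.99, 6.86, 5.44 and 6.63 CPM at 30 days and 8.16, 6.84, 4.91 and 4.44 CPM at 60 days. Abhd5 thus fell to 48.0% and 47.0% of its unoperated mean, with log2 fold changes of -1.05 ± 0.15 (adjusted p = 1.96e-05) and -1.09 ± 0.16 (2.4e-05). Library totals put both genes higher at 10 days (Mgll 0.48, adjusted p = 0.00512; Abhd5 0.61, 0.00113) and left both lower at 30 and 60 days. The within-library ratio of Abhd5 to Mgll gave no exact permutation p under 0.05 in any of the 6 pairs of groups, the differences running from -0.32 to 0.18 on the log2 scale.

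Pnpla3 encodes a patatin-like protein of the lipid droplet, related to adipose triglyceride lipase. It was 5.68, 4.84, 5.44 and 4.69 CPM at 0 days and 1.13, 0.559, 0.593 and 0.615 CPM at 10 days. At 30 days it was 1.74, 1.59, 1.40 and 1.17 CPM and at 60 days 2.31, 2.41, 1.99 and 2.40 CPM. None of the 4 groups overlapped another, and the order from low to high was 10, 30, 60 and 0 days. The log2 fold change against 0 days was -2.81 ± 0.21 (adjusted p = 8.79e-09), -1.80 ± 0.20 (8.63e-07) and -1.18 ± 0.20 (8.63e-05) at the 3 times. This was the deepest fall of any member at 10 days, the 111th largest among all tested genes. It rests on few fragments, from 17 in 10-day replicate 2 (95% exact Poisson interval 9.90 to 27.2) to 132 in the highest library.

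Between the injured groups the members went separate ways. From 10 to 30 days 5 fell further and 1 rose, against 24.3% lower and 23.0% higher among all genes, and the groups did not overlap for 7 members against 43.8% of all genes. Gpam (-1.35 ± 0.19, adjusted p = 3.05e-05), Abhd5 (-1.01 ± 0.15, 5.61e-05), Mgll (-0.81 ± 0.14, 0.000266), Lpin1 (-0.71 ± 0.16, 0.0015) and Agpat3 (-0.22 ± 0.07, 0.0132) were the genes that fell. Pnpla3 rose by 1.02 ± 0.22 (0.00109). Dgat2 missed the threshold (-0.47 ± 0.20, 0.0651) although its groups did not overlap, and it passed with DESeq2 (0.0481). With upper-quartile scaling the call of Agpat3 was lost (-0.15, 0.0624), and with library totals 8 members were lower, Lpin2 (-0.42), Dgat1 (-0.19) and Dgat2 (-0.65) being added.

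From 30 to 60 days 2 members rose and 1 fell, against 10.3% higher and 12.4% lower among all genes. Non-overlapping groups were seen for 2 members and for 20.1% of all genes. Lpin2 fell (-0.62 ± 0.15, adjusted p = 0.00748). Agpat2 (0.81 ± 0.27, 0.0412) and Pnpla3 (0.62 ± 0.20, 0.038) rose, but each call ended in 6 of the 16 fits that left out 1 library: Agpat2 without any of 30-day replicates 1, 3 and 4 or 60-day replicates 2, 3 and 4 (0.64 to 0.83), Pnpla3 without any of 30-day replicates 2, 3 and 4 or 60-day replicates 1, 2 and 4 (0.53 to 0.66). Both were also lost with library totals (0.75 and 0.53). Dgat2 did not pass (0.53 ± 0.20, 0.0696) but did so with DESeq2 (0.0316), and with the L or R of the titles as a covariate it passed both here (0.74, 0.00712) and from 10 to 30 days (-0.71, 0.00434).

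Across the whole span from 10 to 60 days 2 members were higher and 5 lower, against 29.1% and 31.9% of all genes, and 6 had groups that did not overlap, against 51.2%. Pnpla3 rose 3.11-fold (1.64 ± 0.22 on the log2 scale, adjusted p = 7.37e-06) and Agpat2 1.70-fold (0.76 ± 0.27, 0.0219). Abhd5 (-1.04 ± 0.16), Gpam (-0.97 ± 0.19), Lpin2 (-0.88 ± 0.15), Mgll (-0.80 ± 0.15) and Lpin1 (-0.67 ± 0.16) were lower, with adjusted p of 2.56e-05, 0.000348, 7.98e-05, 0.00019 and 0.00174. The groups overlapped for Agpat2, whose call ended without 10-day replicate 2 (0.57, 0.0688), 60-day replicate 3 (0.63, 0.0746) or 60-day replicate 4 (0.72, 0.0505), and with library totals (0.52). Dgat1 differed by 0.02 with TMM factors and was lower with library totals (-0.23, 0.0057). Agpat3 did not pass with TMM factors (-0.12 ± 0.07, 0.143) and was lower with library totals (-0.37, 0.000155).

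Ratios between other members also moved within libraries. Agpat2 to Agpat3 was 0.139, 0.0556, 0.0627 and 0.102 in the 4 groups in order of time. The first 2 injured groups lay below all 0-day libraries (-1.33 and -1.15 on the log2 scale, exact permutation p = 0.0286, adjusted 0.0857), and the 60-day group overlapped the 0-day group (-0.44, p = 0.114). Gpam, at the start of synthesis, was compared with Mgll, at the end of breakdown. Their ratio was 1.25, 0.985, 0.653 and 0.850 at 0, 10, 30 and 60 days, with the 30-day libraries below all others (-0.94 against 0 days, exact permutation p = 0.0286, adjusted 0.0857). Of the 30 exact permutation tests of ratios 10 gave p = 0.0286 and 0 gave an adjusted p under 0.05.

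Fat cells are the other main site of these enzymes, so adipocyte markers were read in the same libraries (Adipoq, Plin1, Cidec, Lep, Cfd, Retn, Pck1, Lipe, Fabp4). Their summed level was 246 to 299 CPM in unoperated muscle and then, in the order 10, 30 and 60 days, 109 to 181, 167 to 232 and 285 to 533 CPM. Fabp4 made up most of this sum, with a mean of 181 CPM at 0 days and 83.8 CPM at 10 days. Against 0 days 0 of 9 were higher at 10 and at 30 days and 2 were lower, Fabp4 and Lipe, so that the lower sums at these times rest on 2 genes. At 60 days 6 were higher and 0 lower. Among all tested genes 33.3%, 33.7% and 29.9% were higher and 29.4%, 30.9% and 29.1% lower at the 3 times. No marker was at 0 in all libraries. The 60-day library with the lowest sum, replicate 1 at 285 CPM, also had the lowest Agpat2 (1.84 CPM) and the lowest Dgat2 (28.8 CPM) of its group, and 10-day replicate 2, with the lowest sum of all, had the lowest Agpat2 of all (1.12 CPM). In the other groups the lowest sum and the lowest Agpat2 were in different libraries. At 0 days the lowest Agpat2 (5.53 CPM) was in replicate 3, which had the highest sum of its group (299 CPM). At 30 days replicate 4 had the lowest sum (167 CPM), while Agpat2 and Dgat2 were lowest in replicate 1 (1.17 and 16.7 CPM). The sum of that replicate 1 was close to the lowest, at 172 CPM, against 221 and 232 CPM in replicates 2 and 3. Gpam was highest in that same 60-day replicate 1 (24.0 CPM). The part of fat cells in these levels was not tested.

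**Figure D4:**
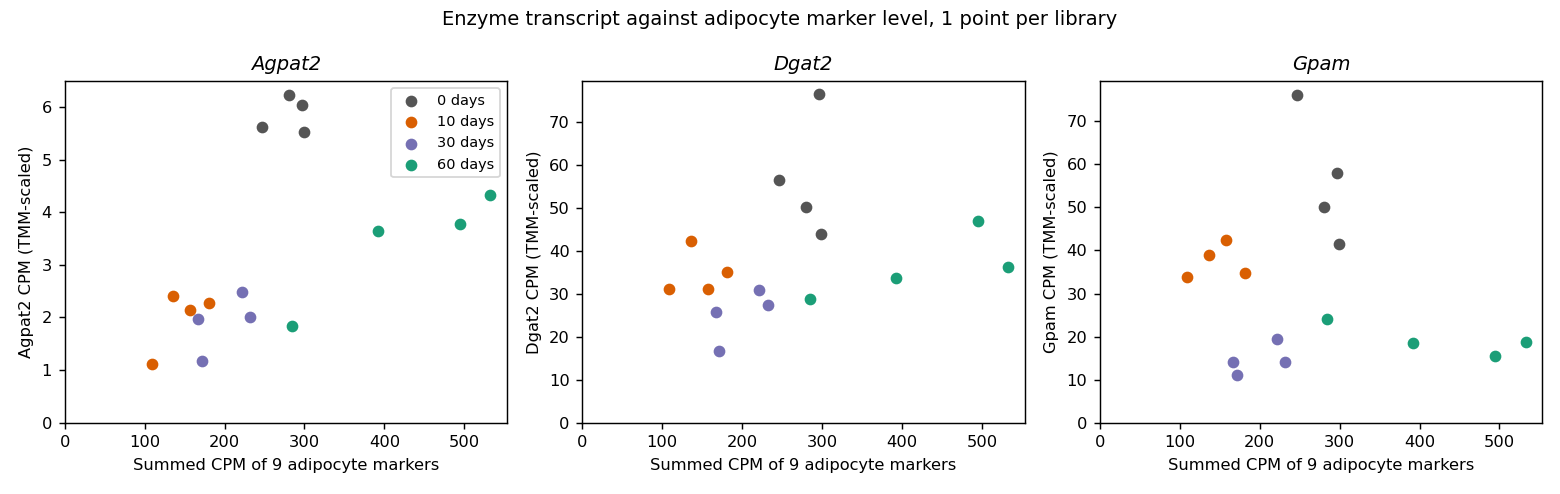
Level of Agpat2, Dgat2 and Gpam (vertical axes, TMM-scaled CPM) against the summed CPM of 9 adipocyte markers (horizontal axis), 1 point per library, coloured by day. The 60-day libraries spread from 285 to 533 CPM of markers, with Agpat2 lowest and Gpam highest in the library at 285 CPM.

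Markers of other cell types were read in the same libraries. Among all tested genes 33.3%, 33.7% and 29.9% were higher and 29.4%, 30.9% and 29.1% lower at 10, 30 and 60 days. The 30-day counts of 2 of 6 below lie near these shares. Of 8 macrophage markers 6, 8 and 8 were higher at 10, 30 and 60 days, their sum going from 37.4 to 58.5 CPM at 0 days to 116 to 155, 156 to 194 and 131 to 240 CPM. The 5 measured fibroblast markers were higher in 4, 5 and 5 cases. Of 6 endothelial markers 6 were lower at 10 days, 2 were lower at 30 days, and 1 was higher and 1 lower at 60 days. With library totals 1 was lower at 10 days, and 2 and 5 were higher at 30 and 60 days. Of 6 Schwann cell and nerve markers 3 were lower at 10 days, 2 higher at 30 days and 6 higher at 60 days, while with library totals 2 were higher and 1 lower at 10 days. Genes of the response to denervation (Chrna1, Chrng, Myog, Ncam1, Runx1) were higher in 5 of 5 cases at all 3 times, with sums of 48.7 to 65.4 CPM in unoperated muscle and then 1945 to 2714, 1067 to 2281 and 142 to 317 CPM. Their part in the levels of the enzymes was not tested.

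Of 16 other genes of synthesis and of glycerol 3-phosphate supply, 14 were tested, and 4 were higher and 6 lower at 10 days, 4 and 6 at 30 days, and 4 and 7 at 60 days. Among all tested genes 33.3%, 33.7% and 29.9% were higher and 29.4%, 30.9% and 29.1% lower at these times. The list's median log2 fold changes were 0.18, -0.24 and -0.42. With library totals 8 were higher and 5 lower, then 7 and 4, then 5 and 4. Gpd1, which makes glycerol 3-phosphate from a glycolytic intermediate, fell the most, from a mean of 1599 ± 30.3 CPM (SD, n = 4) at 0 days to 75.2 ± 3.77, 196 ± 66.1 and 316 ± 5.17 CPM. Its log2 fold changes were -4.41 ± 0.19, -3.03 ± 0.18 and -2.34 ± 0.17 (adjusted p at most 2.73e-08). Its relative Gpd1l was not called at 10 days (0.39) and was lower at 30 (-0.72 ± 0.24, 0.014) and 60 days (-1.36 ± 0.24, 0.000225). Lpin3, the third lipin, rose from 7.28 ± 0.41 CPM to 22.0 ± 2.95 CPM at 10 days (1.60 ± 0.13, 1.79e-08). It was also higher at 30 (0.87 ± 0.13, 1.88e-05) and 60 days (0.68 ± 0.13, 0.000309).

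Fitm2, a protein of the endoplasmic reticulum needed for lipid droplets to form, was lower at 10 (-1.59 ± 0.17, adjusted p = 7.52e-07), 30 (-1.09 ± 0.17, 4.06e-05) and 60 days (-0.82 ± 0.17, 0.000665). Agpat1, the acyltransferase of the same step as Agpat2, was lower at 10 (-0.50 ± 0.10, 0.000234), 30 (-1.30 ± 0.10, 1.22e-08) and 60 days (-0.93 ± 0.10, 7.54e-07). With library totals its 10-day value was 0.16. Agpat9, a glycerol-3-phosphate acyltransferase, was lower at 10 (-1.59 ± 0.19, 1.45e-06) and 30 days (-1.09 ± 0.18, 7e-05) and not called at 60 days (-0.33). Mogat2, a monoacylglycerol acyltransferase, was lower at 10 days (-2.75 ± 0.45, 5.46e-05), from 2.63 CPM to 0.378 CPM. It was 1.52 and 2.56 CPM at 30 and 60 days and not called (-0.78 and -0.04). Mogat1, at a mean of only 0.140 CPM at 0 days, was higher at 10 (2.18 ± 0.50, 0.00106), 30 (2.31 ± 0.49, 0.000659) and 60 days (3.66 ± 0.47, 6.23e-06).

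Of 12 other breakdown genes and regulators 8 were tested. At 10 days 1 was higher and 5 lower, at 30 days 2 and 4, and at 60 days 2 and 1, with medians of -0.62, -0.43 and -0.05. Over all tested genes the shares were 33.3%, 33.7% and 29.9% higher and 29.4%, 30.9% and 29.1% lower. Scaled by totals the counts were 3 higher and 2 lower, then 3 and 2, then 3 and 0. Lipe, hormone-sensitive lipase and also one of the adipocyte markers above, fell at 10 days (-1.28 ± 0.17, adjusted p = 5.26e-06) and 30 days (-1.08 ± 0.16, 3.32e-05). G0s2, an inhibitor of adipose triglyceride lipase, fell at 10 days (-1.80 ± 0.47, 0.00332) and rose at 30 days (1.29 ± 0.44, 0.0185), when its groups overlapped. Plin5, a lipid droplet protein of oxidative tissues, fell at 10 days (-0.86 ± 0.21, 0.00195) but not with library totals (-0.20). Lipa, the lysosomal acid lipase, was lower at 10 (-0.65 ± 0.09, 7.02e-06), 30 (-0.54 ± 0.09, 5.26e-05) and 60 days (-0.63 ± 0.09, 1.75e-05). Its 60-day call was lost with library totals (-0.22), and its 10-day value was then 0.0064. The 30-day fall was close in size to 0.49, the amount by which library totals raised the all-gene median at that time. Ces1d belongs to a family of near-identical carboxylesterases, so its values (-1.01 ± 0.29 at 30 days, 0.72 ± 0.28 at 60 days) are uncertain.

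Faah was the gene with the largest rise of that list and does not act on triacylglycerol. It encodes fatty acid amide hydrolase, which degrades endocannabinoids, as Mgll does for another of them. Its mean level in the 4 groups in order of time was 1.98 ± 0.40, 155 ± 17.8, 69.8 ± 24.5 and 7.89 ± 3.05 CPM. The log2 fold changes were 6.30 ± 0.33 (adjusted p = 8.45e-10), 5.15 ± 0.33 (4.69e-09) and 2.01 ± 0.33 (0.000113), with no overlap of groups. Mgll had no call at 10 days and was lower at the other 2 times.

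On the branch from diacylglycerol and phosphatidic acid to phospholipids 18 of 21 listed genes were tested. At 10 days 5 were higher and 8 lower, at 30 days 7 and 4, and at 60 days 8 and 5, with medians of -0.11, 0.07 and 0.42. The shares over all tested genes were 33.3%, 33.7% and 29.9% higher and 29.4%, 30.9% and 29.1% lower. Scaled by totals 10 were higher and 1 lower, then 12 and 2, then 12 and 2. Ppap2a, a lipid phosphatase of the cell surface that is not a lipin, was higher at 10 days (2.04 ± 0.13, adjusted p = 1.26e-09), 30 days (1.69 ± 0.12, 1.03e-08) and 60 days (1.11 ± 0.12, 1.44e-06). Cds2, which turns phosphatidic acid into CDP-diacylglycerol, was 5.74 ± 0.50 CPM at 0 days and 19.7 ± 1.28 CPM at 10 days (1.78 ± 0.14, 1.08e-08). It was 5.77 and 5.57 CPM at 30 and 60 days and not called (0.0081 and -0.05), though scaled by totals it was higher at both (0.51 and 0.36). Pcyt1a, the rate-limiting enzyme of phosphatidylcholine synthesis, was lower at 10 (-0.52 ± 0.14, 0.00369), 30 (-1.67 ± 0.14, 6.38e-08) and 60 days (-1.70 ± 0.14, 1.09e-07). With library totals its 10-day value was 0.14.

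Chpt1, which joins diacylglycerol to phosphocholine, was lower at 10 (-0.64 ± 0.10, adjusted p = 4.91e-05), 30 (-1.36 ± 0.11, 1.91e-08) and 60 days (-1.24 ± 0.11, 9.52e-08). With library totals its 10-day value was 0.021. Chka, a choline kinase, was higher at 10 (1.29 ± 0.19, 1.31e-05), 30 (0.97 ± 0.19, 0.000252) and 60 days (0.52 ± 0.19, 0.0276), with overlapping groups at 60 days. Dgkz, a kinase that turns diacylglycerol back to phosphatidic acid, fell at 10 days (-1.52 ± 0.35, 0.00147) and rose at 60 days (0.91 ± 0.35, 0.0343), when its libraries ran from 159 to 623 CPM and overlapped the 0-day group.

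**Figure D5:**
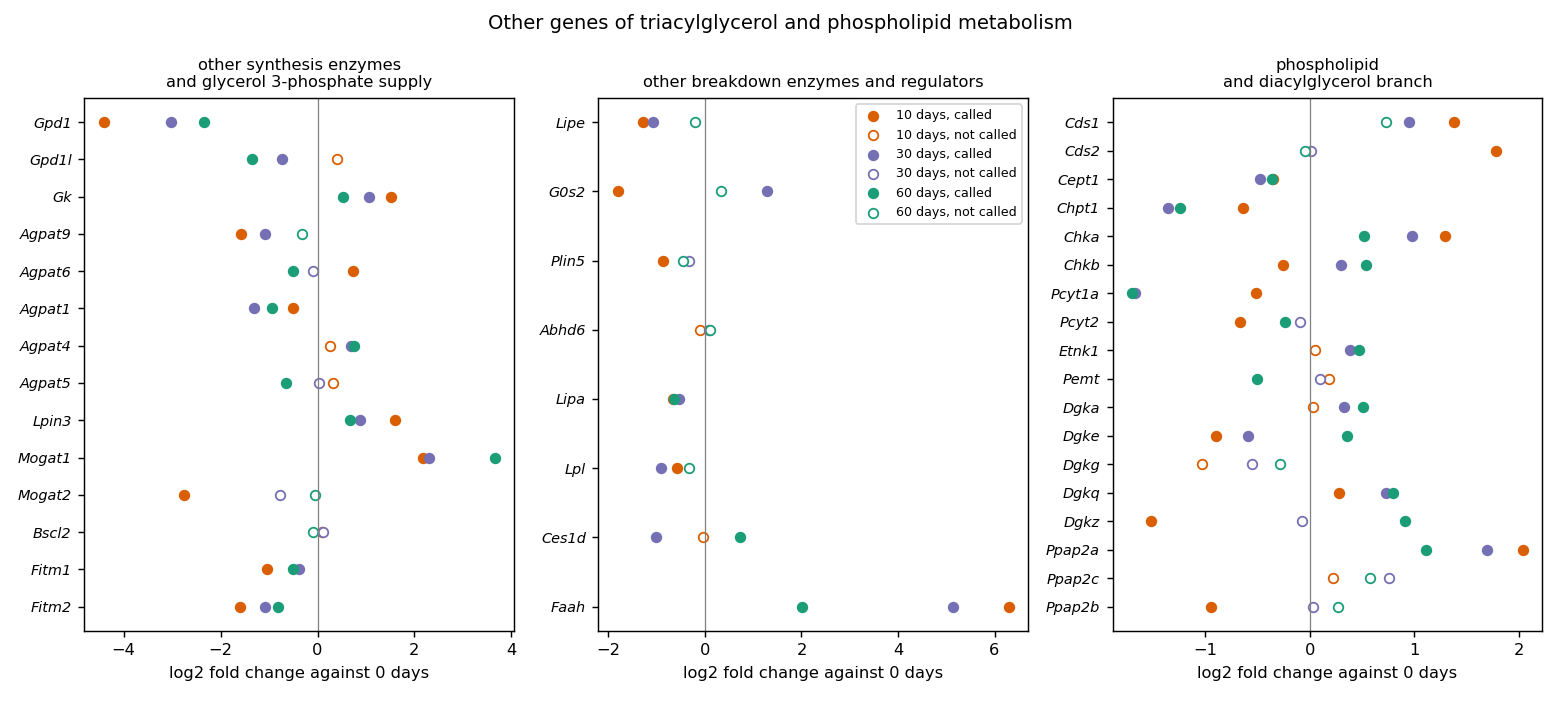
Log2 fold change against 0 days (horizontal axis) of the other tested genes of synthesis, breakdown and the phospholipid branch (vertical axis, 1 panel per list), at 10, 30 and 60 days. Filled circles have an adjusted p under 0.05. Gpd1 lies farthest to the left, at -4.41 at 10 days, and Faah farthest to the right, at 6.30.

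The genes whose level followed each member most closely over the 16 libraries are given as a description. The points share library, depth and the 4 time groups, so that high values are common. Lpin1 was most like Ppp3cb (Pearson r = 0.992), Mfn1 (0.987) and Atg9a (0.986), and Lpin2 most like Gins2 (0.979), Slc44a2 (0.975) and Adck4 (0.973). Pnpla3 ran with Thra (0.983), Lgalsl (0.980) and Acsl6 (0.977), and Abhd5 with Ubxn2a (0.981), Tomm70a (0.975) and Csnk2a1 (0.974). For Gpam the closest were Ndst1 (0.972), Eif4ebp2 (0.970) and Rxra (0.967), and for Agpat3 Nap1l4 (0.972), Kif1c (0.969) and Stk24 (0.969). Dgat1 was closest to Eml1 (0.969), Acn9 (0.969) and Gpd2 (0.969). The least close matches were those of Agpat2 (Rere, 0.935), Mgll (Nfatc3, 0.930) and Dgat2 (Por, 0.912). Among the members themselves Lpin2 ran opposite to Pnpla3 (r = -0.950), and within groups that value was -0.630. This pair is named because its values were the most negative of all member pairs. The 10-day replicate 1 had both the highest Pnpla3 (1.13 CPM) and the lowest Lpin2 (23.1 CPM) of its group.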

How the data were processed

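Messenger RNA of whole supraspinatus was sequenced from libraries made with a TruSeq mRNA v2 kit, per the labels' protocols. That kit does not mark strand, so overlapping antisense transcripts cannot be separated. The values the authors deposited are expected counts, fragments of each gene in each library with no scaling for depth or length, per the file headers. The submitters' processing notes name bcl2fastq 1.8.4, FastQC, TopHat2 2.0.9, Bowtie2 2.1.0.0, Cufflinks, Cuffdiff 2.1.1 and rn5. The annotation and the counting settings are not given in the sources used here. Of 17147 genes 233 had a fractional value, none of them a member.

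Values were rounded to whole counts and filtered with filterByExpr, which kept 11658 genes and left 5489 untested. All 16 libraries entered 1 edgeR 4.0.16 quasi-likelihood fit (R 4.3.3, robust, TMM factors, no covariate), with Benjamini-Hochberg adjustment over all tested genes and calls at an adjusted p under 0.05. The SE is the size of a log2 fold change divided by the square root of F. Ratios are log2 of fragments with 0.5 added, compared by two-sided exact permutation tests. A level of 3 counts corresponds to 0.0752 to 0.175 CPM, and intervals cover counting error only. The common biological coefficient of variation was 0.150. Scripts were tested on simulated data in which few genes changed, so that test does not bear on the choice of scaling.

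The members and gene lists were chosen with earlier results of these data known. Genes named from a list are up to 4 per time with the largest called change and a mean of at least 1 CPM. Agpat6 and Mogat1 were added outside this rule, as genes that rose beside Agpat9 and Mogat2. Likeness is Pearson's r of log2 CPM (prior count 2) among genes with a mean of at least 5 CPM. Alternatives used RLE, upper-quartile and total scaling, DESeq2 1.42.0, limma-voom (limma 3.58.1), other filters and fits, a block on the suffix of the column names, and leaving out each library. Those suffixes did not pair the libraries: deviations of same-suffix libraries had correlations from -0.24 to 0.22 over 24 pairs. Protein sequences were not used here.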

Additional observations from a re-analysis of the deposited data

Results flagged for a closer look

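In 40 checks of a group of 4 libraries, 1 member had a library set apart from the other 3 by Dixon's criterion, which chance alone meets in about 1 of 20 groups. Pnpla3 at 10 days was 1.13 CPM in replicate 1 and 0.559 to 0.615 CPM in the other libraries. Without that library its 10-day level would be lower still, and its call against 0 days held in all 16 fits that left out 1 library.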

How the results depend on the processing

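Of 60 member values (10 genes in 6 comparisons) 44 were called, and 39 of these were called in all 16 fits that left out 1 library. The exceptions were Gpam at 10 against 0 days, Dgat2 at 60 against 0 days, Pnpla3 at 60 against 30 days and Agpat2 at 60 against both 30 and 10 days. Of the 16 uncalled values 4 were called in at least 1 such fit. Members higher from 30 to 60 days then numbered 0 to 3, and from 10 to 60 days 1 to 2. RLE factors, a fit without robust estimation and a mean of at least 1 CPM as filter left all 60 calls as they were.

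Library totals changed the most. Mean TMM factors were 0.763 at 0 days and 1.20, 1.08 and 1.01 at 10, 30 and 60 days. Leaving these factors out moved all members of a comparison by nearly the same amount. At 10 against 0 days the median over all genes moved by 0.66 on the log2 scale. The sign changes below thus come with this common shift and are not particular to the genes named. Why the factors differed between groups was not tested. Log2 fold changes at 10 against 0 days became positive for Gpam (0.069), Agpat3 (0.37), Dgat1 (0.14), Mgll (0.48), Abhd5 (0.61), Agpat1 (0.16), Ces1d (0.62), Lipa (0.0064), Pcyt1a (0.14) and Chpt1 (0.021). So did Agpat3 (0.0066) and Cds2 (0.36) at 60 against 0 days, while Dgat1 at 60 against 10 days became negative (-0.23). With totals 4 members were higher and 3 lower at 10 days, 5 lower at 60 days, 8 lower from 10 to 30 days, 0 higher from 30 to 60 days and 1 higher from 10 to 60 days.

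At an adjusted p under 0.01 the genes called between 30 and 60 days numbered 1244 in place of 2636, and 0 members were higher there and 1 from 10 to 60 days. With the compared groups fitted alone, which leaves fewer samples, these numbers were 1530, 0 and 1. Members higher from 30 to 60 days numbered 1 with limma-voom and 1 without a filter for low counts.

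With the column suffix as a replicate block 58 of the 60 member values kept their call and Dgat2 was newly called from 10 to 30 days (-0.48, adjusted p = 0.0365) and from 30 to 60 days (0.52, 0.0482). The suffixes do not pair the libraries. Depth limits Pnpla3 and Agpat2 most, with 17 and 33 fragments in their lowest libraries.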
